A study of Mus musculus with 12 samples.

Results

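Transcripts of blood vessel cells were present in libraries of spinal cord cells sorted for astrocytes, and 35 genes of vessel cells are described here: 22 endothelial genes, 9 genes of pericytes and 4 of vascular smooth muscle. They were chosen by name as known markers of these cells and were read from a table of 24421 gene entries, which held all 35. Of the members, 33 passed a filter of at least 10 normalized counts in at least 3 libraries. Higd1b, a pericyte gene, and Cnn1, which encodes the smooth muscle protein calponin, did not pass it. No member passed the test for a difference between cKO and control libraries, in either sex or averaged over both. The summed endothelial genes had a 3.24-fold range over the libraries, from a male control to a male cKO library. Within the male controls the sum ran from 4200 to 10189. Levels of all 21 other endothelial genes had a positive correlation over the libraries with the endothelial marker Cldn5 (median r = 0.76). Over all genes 48.7% had a positive one. None of the 21 passed after adjustment over all genes. At an unadjusted permutation p under 0.05 there were 15 of the 21, against 13.1% of all genes. The relation was not particular to endothelial genes, since the astrocyte water channel gene Aqp4 had r = 0.75 with Cldn5. The genes of smooth muscle were scarce, and 1 of them, Myh11, had both male cKO libraries above and all 3 female cKO libraries below their controls, without passing. Among all 13108 tested genes, 0.87% were separated in both sexes in opposite directions.

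The study sorted GFP-positive cells from spinal cords of mice of the Aldh1l1-GFP genotype, in which the promoter of an astrocyte gene drives the fluorescent reporter. All 4 groups carry that reporter. Male and female animals were either controls or conditional knockouts (cKO) of Nkx6.1, a homeobox transcription factor (gene symbol Nkx6-1). The Cre driver, the alleles carried by controls, the animals' ages and any pooling of animals are not stated in the sources used here. Each group had 3 labelled libraries. The labels do not tell whether each library is a different animal, so a p-value here measures only the spread between these libraries, which may be technical.

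Endothelial cells line the vessels, and in the central nervous system they form the blood-brain barrier by sealing their contacts with tight junctions and by pumping and transporting solutes. Pericytes lie on capillaries within the basement membrane, and smooth muscle cells wrap arteries and arterioles and contract. Astrocyte endfeet, rich in the water channel Aqp4, cover nearly the whole outer surface of these vessels. Aldh1l1 is a marker of astrocytes and not of these vessel cells.

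The library labelled male cKO replicate 2 repeated that of female cKO replicate 2. Over all genes the pair differed by no more than sampling noise, with a chi-square per degree of freedom of 1.06, against 15.2 to 145 for the other 65 pairs, and of the 31 members with at least 20 reads in the pair all 31 agreed within counting error. It also held 3546 reads of the female-specific RNA Xist. It was counted once, as female cKO replicate 2, so male cKO has n = 2 and 11 libraries enter each result. Depth was 2246412 to 9054934 reads in genes. Of these reads, the ribosomal precursor Rn45s took 20.9% (female control replicate 2) to 40.6% (male cKO replicate 3), which leaves fewer for other genes. The targeted gene, Nkx6-1, had 2 to 19 reads in controls, 0 in replicate 1 of each cKO group and in female cKO replicate 2, and 18 and 19 in the libraries labelled male and female cKO replicate 3. Astrocyte markers (8 of 8 detected) summed to 13292 to 35872 in the controls and 64799 to 79896 in the cKO libraries of males, and to 12774 to 62904 and 29917 to 68289 in those of females. Oligodendrocyte markers (8 of 8 detected) summed to 117231 to 451764, of which the myelin gene Mbp alone had 43566 to 398920. Neutrophil markers ranged from 0 in male cKO replicate 3 and female control replicate 1 to 6164 in male control replicate 3, and perivascular fibroblast markers from 3813 to 38876. Of 6 red blood cell markers, 4 were listed at 0 in all 11 libraries, the globin gene Hbb-bs among them.

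Promoter windows are shown for 4 endothelial genes: Cldn5, the marker used for the correlations, Flt1, the endothelial gene it was first paired with, and Emcn and Egfl7, the 2 endothelial members that hold the longer word described after the sequences. Each is written 5′ to 3′ on the gene's strand and runs from 250 bases before to 50 bases after a gene's start, from RefSeq on build GRCm38.p6, and 23 of the 35 members had such a window. Capitals mark GGAA on either strand, the core bound by ETS factors such as Erg. The windows lie at chr16:18776597-18776896 on the plus strand (Cldn5), chr5:147725962-147726261 on the minus strand (Flt1), chr3:137340828-137341127 on the plus strand (Emcn) and chr2:26580833-26581132 on the plus strand (Egfl7, 1 of its 3 windows).
Cldn5: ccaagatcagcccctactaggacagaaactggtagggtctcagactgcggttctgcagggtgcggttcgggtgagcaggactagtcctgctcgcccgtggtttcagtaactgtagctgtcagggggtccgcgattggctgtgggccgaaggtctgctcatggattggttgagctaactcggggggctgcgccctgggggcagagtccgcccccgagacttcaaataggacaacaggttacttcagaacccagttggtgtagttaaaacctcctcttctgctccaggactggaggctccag
Flt1: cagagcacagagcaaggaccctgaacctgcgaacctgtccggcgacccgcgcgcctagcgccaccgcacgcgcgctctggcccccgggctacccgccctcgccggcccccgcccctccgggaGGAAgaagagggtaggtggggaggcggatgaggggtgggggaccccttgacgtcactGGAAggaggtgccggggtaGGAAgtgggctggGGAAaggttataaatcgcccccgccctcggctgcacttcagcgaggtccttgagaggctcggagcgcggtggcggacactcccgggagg
Emcn: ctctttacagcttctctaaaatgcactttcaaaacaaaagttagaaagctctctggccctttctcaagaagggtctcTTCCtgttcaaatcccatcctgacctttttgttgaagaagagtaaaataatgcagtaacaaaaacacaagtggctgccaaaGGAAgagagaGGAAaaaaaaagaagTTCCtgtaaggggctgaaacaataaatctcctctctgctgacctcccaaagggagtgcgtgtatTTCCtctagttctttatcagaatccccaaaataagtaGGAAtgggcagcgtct
Egfl7: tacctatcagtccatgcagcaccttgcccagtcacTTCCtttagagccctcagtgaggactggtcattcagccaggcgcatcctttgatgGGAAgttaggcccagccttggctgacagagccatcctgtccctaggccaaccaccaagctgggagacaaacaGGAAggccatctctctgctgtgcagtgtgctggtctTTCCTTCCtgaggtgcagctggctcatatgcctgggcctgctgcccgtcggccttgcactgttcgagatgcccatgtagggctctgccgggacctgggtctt
GGAA was found in 95.98% of all 32851 windows of this length, and in 13 of the 14 endothelial members with a window. Cldn5 was the exception, with 0 matches on either strand. The longer word AACAGGAA, which joins a forkhead and an ETS core, was found on either strand in 2.65% of all windows and in 2 of the 14 endothelial members, Emcn (from base 78 of the window, on the other strand) and Egfl7 (from base 159). It contains a GGAA that is counted above. It was in 0 of the 7 pericyte and 0 of the 2 smooth muscle members with a window. The CArG box of smooth muscle genes was in 1.63% of all windows and in 0 of these 23 members. A member was counted if any of its windows held the match, and Egfl7 has 3 windows, whereas the shares are of single windows. The member counts and the shares are therefore not in the same unit. A match describes letters in these windows and no more.

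Levels differed widely among the members. Per kilobase of exon (GENCODE vM21), the highest median over the 11 libraries among endothelial genes was 235 (175 to 638) normalized counts per kilobase for Itm2a, which encodes a membrane protein enriched in brain vessels, with the range over libraries in parentheses. The surface protein gene Ly6c1 followed at 229 (101 to 349), then the organic anion transporter gene Slco1a4 at 226 (96.5 to 317) and the drug efflux pump gene Abcb1a at 126 (68.1 to 255). These ranges overlapped, so neighbours in the order are not separated by more than their spread. The tight junction gene Cldn5 had 79.9 (38.1 to 184) and the blood clotting factor gene Vwf had 3.45 (0.650 to 7.33), the lowest median of the endothelial members. Among pericyte genes Vtn, encoding vitronectin, had 114 (94.0 to 211) and Rgs5, a regulator of G protein signalling, had 99.0 (38.6 to 189). Smooth muscle genes were scarce, at 9.76 (0.458 to 92.4) for the actin gene Acta2 and 9.19 (1.19 to 27.5) for the myosin gene Myh11. Calponin (Cnn1), the intermediate filament gene Des and Higd1b had the lowest medians of all, with 0, 1.82 and 3.00. Counts of several members carry a further doubt, and the largest exon overlaps are given here. Exons of Tagln overlap an antisense gene over 62.4% of their bases, and those of Sox17 and Abcb1a overlap a neighbour on the other strand over 16.8% and 10.1%. Those of Egfl7 overlap a protein-coding gene on the same strand over 7.4%. The strand setting of the counting is unknown here, and Ly6c1, Abcb1a and Acta2 have close paralogs that could share reads.

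**Figure D1:**
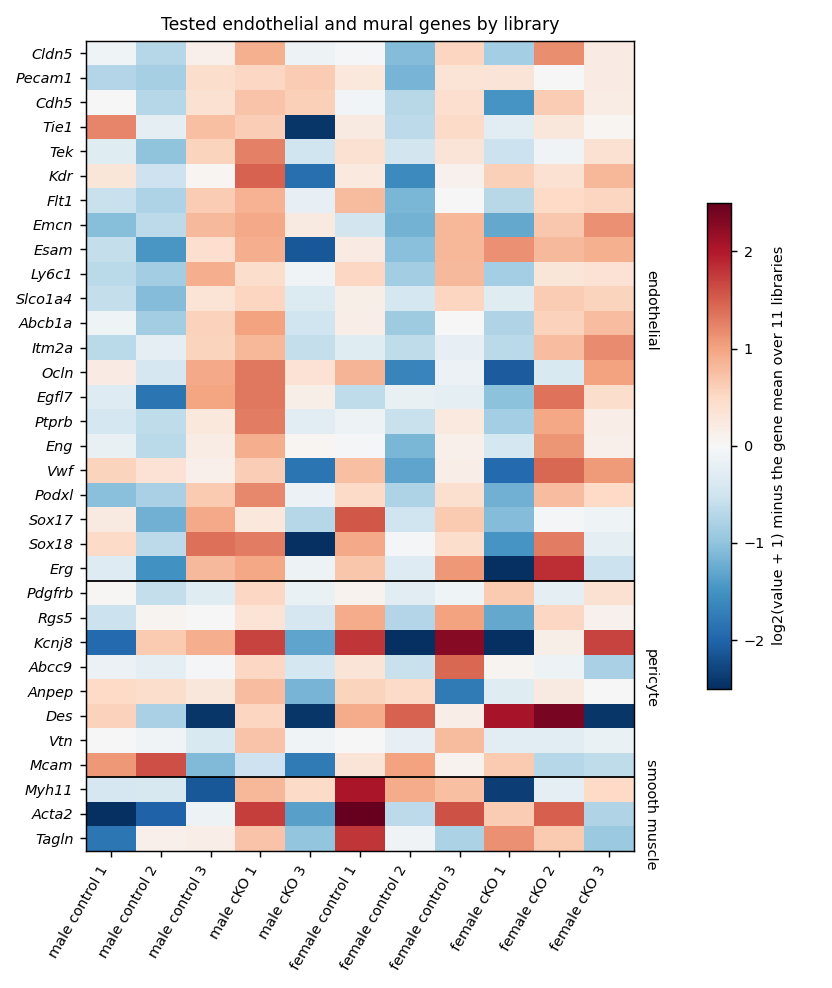
Each row is 1 of the 33 tested members and each column 1 of the 11 libraries; colour gives log2(value + 1) minus that gene's mean over the libraries, where value is normalized counts. Most endothelial rows are red in male cKO replicate 1 and blue in female control replicate 2, while the pericyte and smooth muscle rows do not share 1 pattern.

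Slco1a4, Ptprb, Flt1 and Abcb1a had the highest mean normalized counts of the endothelial genes, a ranking that is not per length. Slco1a4 (chr6:141805440-141856199), which carries organic anions across the barrier, had 865, 619 and 1667 in male control replicates 1 to 3, 1895 and 1025 in male cKO replicates 1 and 3, 1450, 967 and 1885 in female controls and 1064, 2034 and 1911 in female cKO libraries, all in normalized counts. The lowest were male control replicate 2 and male control replicate 1, and cKO and control libraries overlapped in each sex. Its log2 fold change, cKO minus control averaged over the sexes, was 0.37 (SE 0.28, limma adjusted p = 0.74). Abcb1a (chr5:8660077-8748575), which pumps drugs out of the endothelium, had 648, 379 and 1037 in male control replicates 1 to 3, 1398 and 494 in male cKO replicates 1 and 3, 780.2, 373 and 689 in female controls and 413, 1038 and 1194 in female cKO libraries. It was highest in male cKO replicate 1 and lowest in female control replicate 2, with a log2 fold change of 0.42 (SE 0.36, limma adjusted p = 0.786). The junction gene Cldn5 (chr16:18776847-18778262), shown as the marker the other members are compared with, had 108, 70.1 and 126 in male control replicates 1 to 3, 215 and 105 in male cKO replicates 1 and 3, 113, 54.0 and 169 in female controls and 63.3, 261 and 133 in female cKO libraries. Female cKO replicate 2 and male cKO replicate 1 stood highest, the other cKO libraries lay among the controls, and its log2 fold change was 0.48 (SE 0.41, limma adjusted p = 0.779). Ocln, another tight junction gene, had 16.01 to 178 and Esam, an adhesion molecule of endothelial contacts, had 19.9 to 199.8.

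Of the endothelial members, Pecam1 alone had an unadjusted p under 0.05 in the averaged comparison. Pecam1 (chr11:106654217-106750628), an adhesion molecule of endothelial contacts that platelets and leukocytes also carry, had 169.8, 157 and 381 in male control replicates 1 to 3, 406 and 436 in male cKO replicates 1 and 3, 339, 125 and 356 in female controls and 352, 284 and 324 in female cKO libraries. Both male cKO libraries exceeded all male controls, whereas female cKO libraries, at 284 to 352, lay within the range of female controls. Its averaged log2 fold change was 0.66 (SE 0.31, limma adjusted p = 0.568), the smallest unadjusted p of the endothelial members (0.0451). Neutrophil markers (8 of 8 detected in at least 1 library) summed to 163 to 6164 in the controls and 0 to 1506 in the cKO libraries of males, and to 0 to 1541 and 21.6 to 48.2 in those of females, and their part in Pecam1 was not tested. Ptprb (chr10:116275523-116389535), a phosphatase that acts on the angiopoietin receptor and on cadherin contacts, had 767, 676 and 1249 in male control replicates 1 to 3, 2542 and 859 in male cKO replicates 1 and 3, 959, 710.3 and 1242 in female controls and 578, 2038 and 1181 in female cKO libraries. Its highest value came from male cKO replicate 1 and its lowest from female cKO replicate 1, so the cKO libraries spanned the controls, and the log2 fold change was 0.51 (SE 0.34, limma adjusted p = 0.714). Flt1 (chr5:147561604-147726011), a receptor for vascular endothelial growth factor, had 658, 569 and 1498 in male control replicates 1 to 3, 1765 and 841 in male cKO replicates 1 and 3, 1674, 439.8 and 980.2 in female controls and 597, 1370 and 1407 in female cKO libraries. Its groups overlapped in both sexes, with a log2 fold change of 0.39 (SE 0.40, limma adjusted p = 0.824).

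No other endothelial member passed. Kdr, the main signalling receptor for vascular endothelial growth factor, had 38.5 to 406, and all 3 female cKO libraries (189 to 259) exceeded the female controls (47.3 to 172), while the male groups overlapped. Cdh5, the cadherin of endothelial contacts, had 99.5 to 458, and both male cKO libraries (423 and 458) exceeded the male controls. Of the angiopoietin receptor Tek there were 106 to 517, of its relative Tie1 8.55 to 119 and of endoglin (Eng), a co-receptor for transforming growth factor beta, 74.6 to 359. The sialomucin genes Podxl and Emcn had 210.2 to 1120 and 87.0 to 469.6, Egfl7, a secreted vessel protein, 11.7 to 114, Ly6c1 169.8 to 585 and Itm2a 306 to 1112. The transcription factor genes Erg, Sox17 and Sox18, which specify endothelial identity, had 12.5 to 293, 19.2 to 135 and 1.42 to 66.4. Male cKO replicate 3 was low in several of them, with 1.42 of Sox18 (1 read), 8.55 of Tie1 and 11.4 of Vwf.

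The 3 pericyte genes with the highest mean normalized counts had groups that overlapped in both sexes. Vtn (chr11:78499091-78502324), a secreted protein of pericytes, had 251, 233 and 191 in male control replicates 1 to 3, 409.7 and 232 in male cKO replicates 1 and 3, 247, 215 and 428 in female controls and 205, 203 and 221 in female cKO libraries. Apart from male cKO replicate 1 and female control replicate 3, every library lay between 191 and 251, and the averaged log2 fold change was 0.01 (SE 0.27, limma adjusted p = 0.995). Rgs5 (chr1:169655501-169695813) had 297, 450.0 and 424 in male control replicates 1 to 3, 540.3 and 321 in male cKO replicates 1 and 3, 821, 258 and 861 in female controls and 175, 614 and 462 in female cKO libraries. Female controls spanned nearly the whole range, from 258 to 861, and the log2 fold change was -0.25 (SE 0.36, limma adjusted p = 0.877). Abcc9 (chr6:142587862-142702315), the regulatory subunit of the pericyte potassium channel gated by ATP, had 308, 287 and 334 in male control replicates 1 to 3, 484 and 249 in male cKO replicates 1 and 3, 425, 229 and 922 in female controls and 354, 309 and 194 in female cKO libraries. Female control replicate 3 stood apart at 922, and the log2 fold change was -0.26 (SE 0.31, limma adjusted p = 0.85). Its pore-forming partner Kcnj8 had 0 to 45.7 and the receptor for platelet-derived growth factor B, Pdgfrb, 105 to 249. Anpep, an aminopeptidase that myeloid cells also carry, had 31.7 to 190.3 and the intermediate filament gene Des 0 to 27.0. Higd1b had 0 reads in male cKO replicate 3 and in female cKO replicates 1 and 3, and at most 18.8 normalized counts elsewhere. A count of 0 allows up to 3 reads, or 4.27, 2.09 and 4.47 normalized counts in those libraries, for counting error only.

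Mcam was the only member with a negative log2 fold change and an unadjusted p under 0.05 in the comparison averaged over the sexes. This adhesion molecule of pericytes and endothelium (chr9:44134469-44142727) had 151, 217 and 32.1 in male control replicates 1 to 3, 48.6 and 19.9 in male cKO replicates 1 and 3, 88.5, 142 and 74.9 in female controls and 111, 42.5 and 44.7 in female cKO libraries. The values were lowest in male cKO replicate 3 and highest in male control replicate 2, and the groups overlapped in both sexes through male control replicate 3 and female cKO replicate 1. Its averaged log2 fold change was -1.19 (SE 0.50, limma adjusted p = 0.527), with an unadjusted p of 0.0258, the smallest of the 33 tested members. The oligodendrocyte gene Mog had 1116, 1828 and 748 in male control replicates 1 to 3, 474 and 446 in male cKO replicates 1 and 3, 997, 1378 and 692 in female controls and 1396, 413 and 587 in female cKO libraries, with a log2 fold change of -0.91 (SE 0.30, limma adjusted p = 0.454). Like Mcam it was highest in male control replicate 2 and high in female control replicate 2 and female cKO replicate 1. The 8 oligodendrocyte markers summed to 117231 to 212357 in the controls and 131702 to 363724 in the cKO libraries of males, and to 141503 to 315745 and 135207 to 451764 in those of females, and the sum was highest in female cKO replicate 2, the library in which Mog was lowest. The part of these markers in the Mcam values was not tested.

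The 3 tested smooth muscle genes had positive log2 fold changes in males and negative ones in females, at low counts, and none passed. Those of Tagln were smaller than their SE, at 0.37 (SE 1.26) in males and -0.017 (SE 1.13) in females. Myh11 (chr16:14194535-14291372), the myosin heavy chain of smooth muscle, had 37.2, 38.0 and 10.7 in male control replicates 1 to 3, 89.6 and 69.8 in male cKO replicates 1 and 3, 209, 96.3 and 85.1 in female controls and 9.05, 42.5 and 71.6 in female cKO libraries. In males both cKO libraries were above all controls, and in females all 3 cKO libraries were below all controls. In reads these were 74, 91 and 5 against 105 and 49 in males, and 340, 173 and 67 against 13, 22 and 48 in females. The log2 fold changes were 1.63 (SE 0.82, limma adjusted p = 0.531) in males and -1.93 (SE 0.73, limma adjusted p = 0.999) in females. The difference of these effects, female minus male, was -3.56 (SE 1.10, limma adjusted p = 0.882), with an unadjusted p of 0.00387, and did not pass. Of all 13108 tested genes, 0.87% had groups that were separated in both sexes in opposite directions.

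Acta2 (chr19:34241090-34255590), smooth muscle actin, had 1.00, 5.004 and 21.4 in male control replicates 1 to 3, 79.4 and 8.55 in male cKO replicates 1 and 3, 203, 14.5 and 72.4 in female controls and 36.9, 67.5 and 13.4 in female cKO libraries. It was highest in female control replicate 1 and nearly absent from male control replicate 1 (2 reads), and the groups overlapped in both sexes. Its log2 fold changes were 2.10 (SE 1.22, limma adjusted p = 0.621) in males and -0.88 (SE 1.09, limma adjusted p = 0.999) in females. Between control libraries, female minus male, the log2 differences were 2.22 (SE 0.73, limma adjusted p = 1.00) for Myh11 and 3.25 (SE 1.09, limma adjusted p = 1.00) for Acta2. All 3 female controls were above all male controls in Myh11, and in Acta2 female control replicate 2 lay below male control replicate 3. How many of all genes were separated in this way between the sexes was not counted, so the separation of Myh11 carries no weight alone. Tagln, an actin-binding protein of smooth muscle, had 2.01 to 35.05, and Cnn1 had reads only in male control replicate 3 (4) and female control replicate 1 (1).

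**Figure D2:**
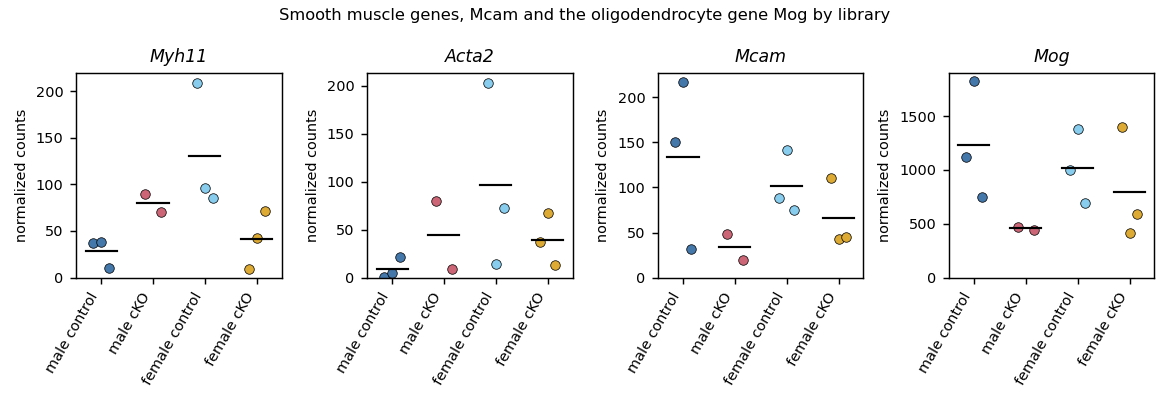
Normalized counts of Myh11, Acta2, Mcam and Mog in each library, with the 4 groups on the horizontal axis, 1 point per library and a line at the group mean (n = 3, and n = 2 in male cKO). Myh11 is higher in both male cKO libraries than in male controls and lower in all 3 female cKO libraries than in female controls. Among all tested genes, 0.87% were separated in both sexes in opposite directions. Mcam and Mog share their highest library.

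Whether vessel genes vary together over the libraries was asked first for Cldn5 with 1 other endothelial gene, 1 pericyte gene, 1 smooth muscle gene and 1 astrocyte gene, on log2(value + 1) over 11 libraries. Cldn5 and Flt1 had a Pearson r = 0.80 (permutation p = 0.00381, adjusted 0.0152) and Spearman rho = 0.77 (permutation p = 0.00738, adjusted 0.0295). Cldn5 and the astrocyte water channel gene Aqp4 had a Pearson r = 0.75 (permutation p = 0.00815, adjusted 0.0163) and Spearman rho = 0.65 (permutation p = 0.0342, adjusted 0.0684). With Vtn it had a Pearson r = 0.43 (permutation p = 0.18, adjusted 0.18) and Spearman rho = 0.18 (permutation p = 0.597, adjusted 0.597), and with Acta2 a Pearson r = 0.44 (permutation p = 0.173, adjusted 0.18) and Spearman rho = 0.50 (permutation p = 0.122, adjusted 0.163). All p-values are two-sided and were adjusted over the 4 pairs. Leaving out the libraries farthest from the median of Cldn5, female cKO replicate 2 and female control replicate 2, the r of Flt1 was 0.76 (adjusted permutation p = 0.0678) and that of Aqp4 0.64 (0.0842), so neither passed without them. Within the 6 female libraries the r values were 0.77 and 0.83, with adjusted exact permutation p-values of 0.169 and 0.122, and no value was computed over the 5 male libraries, fewer than the 6 set as the least for a correlation. Without female control replicate 2 alone, both relations also missed the threshold (adjusted permutation p = 0.0741 and 0.0748), and without female cKO replicate 2 that of Vtn passed, at r = 0.70 (0.0357). The values of a library share its scaling and its mix of cells, and in bulk RNA fewer vessel cells and less RNA per vessel cell cannot be told apart.

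**Figure D3:**
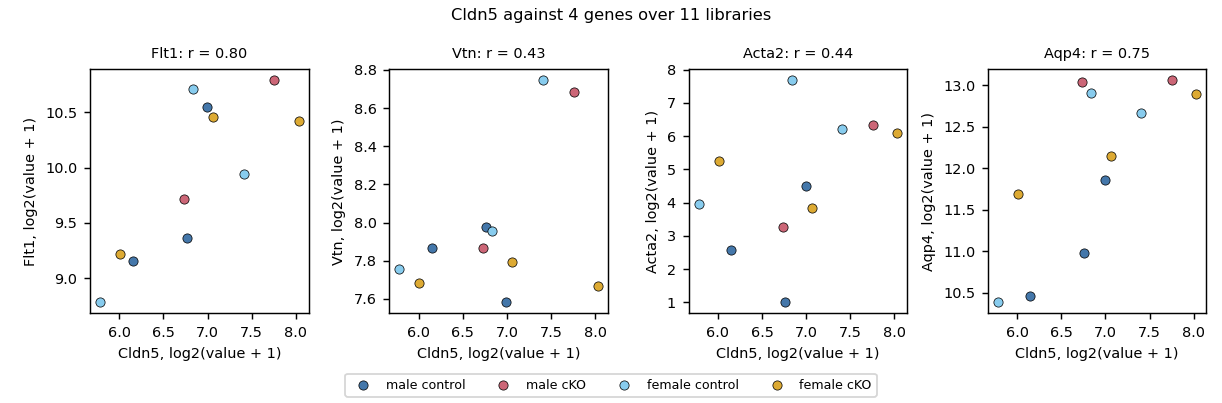
Each point is 1 of 11 libraries, with log2(value + 1) of Cldn5 on the horizontal axis and of Flt1, Vtn, Acta2 or Aqp4 on the vertical axis, coloured by group. Flt1 and Aqp4 climb with Cldn5 (r = 0.80 and 0.75), and Vtn and Acta2 scatter more widely.

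Every tested member was then set against Cldn5, an extension chosen after the values were seen, with p-values adjusted over all 13107 other tested genes. All 21 of 21 endothelial members had a positive r, where 48.7% of all genes did. The median of these members was 0.76, with a range of 0.37 to 0.96, against a median of -0.02 over all genes. At an unadjusted permutation p under 0.05 there were 15 of 21, against 13.1% of all genes. After adjustment 0 passed by Pearson's r or by Spearman's rho, as did 0% of all genes by each. The closest was endoglin (Eng), with r = 0.96 (adjusted permutation p = 0.0655) and rho = 0.93 (adjusted permutation p = 0.146), where the unadjusted p of r, 1e-05, is the smallest that 100000 resamples can give. Ptprb followed with an r of 0.92, and Cdh5 and Abcb1a with 0.85 each. The loosest were Tie1 (0.37) and the group of Sox17, Esam and Sox18 (0.50 each).

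The mural members had lower values. The 8 tested pericyte members had a median r of 0.26, from -0.57 for Mcam to 0.69 for Rgs5, and 2 of them, Rgs5 and Kcnj8, had an unadjusted p under 0.05. Pdgfrb, the receptor through which endothelium recruits pericytes, had 0.12, and Anpep -0.08. The smooth muscle members had 0.01 for Tagln, 0.21 for Myh11 and 0.44 for Acta2, and 0 of 3 had an unadjusted p under 0.05. Without female cKO replicate 2 and female control replicate 2, the medians were 0.79 for endothelial, 0.32 for pericyte and 0.39 for smooth muscle members. The difference between the classes was not tested. Several mural genes had under 20 reads in a library, Kcnj8 and Tagln among them, so their values carry more counting error.

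Summed within each library, the 22 endothelial genes came to 4200 to 13616 normalized counts, a 3.24-fold range. The 9 pericyte genes came to 1015 to 2518 and the 4 smooth muscle genes to 40.2 to 448, 2.48-fold and 11.1-fold ranges. Means of the endothelial sum were 6576 ± 3180 (SD, n = 3) in controls and 9873 ± 5293 (n = 2) in cKO libraries of males, and 7262 ± 2612 and 8917 ± 3633 (n = 3 each) in those of females. Those of the pericyte sum were 1360 ± 102 and 1486 ± 666 in males and 1873 ± 689 and 1314 ± 139 in females. Both sums overlapped between cKO and control libraries in each sex. Means of the smooth muscle sum were 48.3 ± 7.12 and 134 ± 72.5 in males and 243 ± 178 and 94.4 ± 28.9 in females. The male cKO libraries (82.6 and 185) were above all male controls, and the female groups overlapped. Among controls, the smooth muscle sums were 40.2 to 53.4 in males and 119.7 to 448 in females, a difference that was not tested.

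The ratio of pericyte to endothelial sums does not depend on how libraries were scaled. Per 100 endothelial normalized counts, pericyte genes had 25.0, 35.02 and 12.5 in male control replicates 1 to 3, 14.4 and 16.6 in male cKO replicates 1 and 3, 22.8, 27.0 and 28.1 in female controls and 25.3, 12.8 and 12.1 in female cKO libraries. Male control replicate 3 had a lower ratio than 4 of the 5 cKO libraries, and female cKO replicate 1 lay within the controls, so the groups overlapped in both sexes. Mean ratios were 24.2 ± 11.3 in controls and 15.5 ± 1.54 in cKO libraries of males (SD, n = 3 and 2), and 25.95 ± 2.79 and 16.7 ± 7.43 in those of females (SD, n = 3 each). The difference in the log2 ratio, cKO minus control averaged over the sexes, was -0.62, and it is given without a test because the genes were chosen with results of these libraries known. Astrocyte and neutrophil marker sums by group are given above, and their part in this ratio was not tested.

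**Figure D4:**
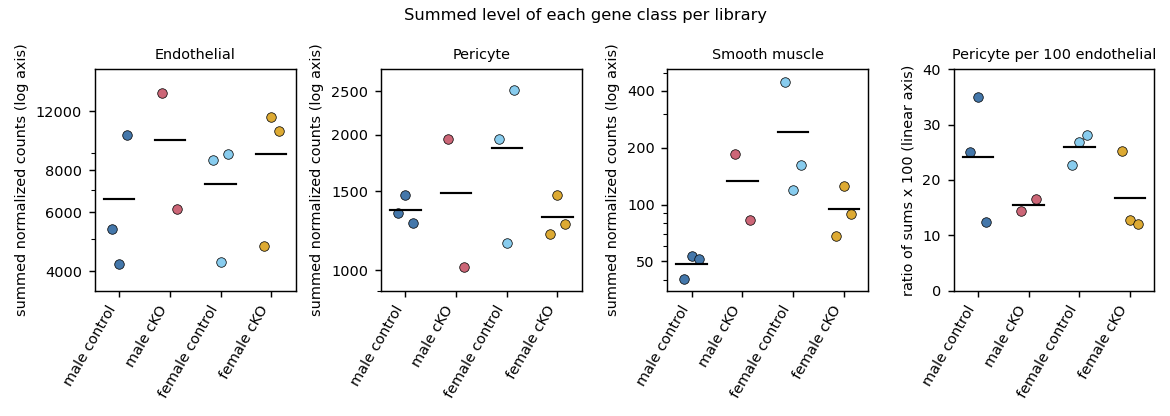
Summed normalized counts of the 22 endothelial, 9 pericyte and 4 smooth muscle genes (log axes) and the pericyte sum per 100 endothelial counts (linear axis) in each library, by group, with a line at the group mean. The endothelial and pericyte sums overlap between cKO and control libraries in both sexes, and so does the ratio.

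When cKO and control libraries were compared with the sexes averaged, 0 of the 33 tested members passed in limma at an adjusted p of 0.05, and 0% of all 13108 genes did. At an unadjusted p under 0.05 there were 2 members, Pecam1 with a positive and Mcam with a negative log2 fold change, 2 of 33 against 8.57% of all genes. edgeR and DESeq2 on the recovered reads also called 0 members, with 0% and 0.193% of genes called. Of the endothelial members 17 of 22 had a positive log2 fold change, with a median of 0.41, against -0.02 over all genes tested, of which 48.3% were positive. Leaving out 1 library at a time moved that endothelial median from 0.08, without male cKO replicate 1, to 0.67, without male cKO replicate 3. Of the pericyte members 2 of 8 were positive, with a median of -0.22, and of the smooth muscle members 2 of 3, with a median of 0.18. The endothelial values ran from -1.04 for Sox18 to 0.86 for Egfl7. The 5 negative ones were those of Sox18, Tie1, Sox17, Vwf and Erg. Over 20 alternatives the number of positive endothelial members was 12 to 21, the lowest without male cKO replicate 1 and the highest without male cKO replicate 3 or without both libraries labelled cKO replicate 3. The pericyte median was 0.26 without male cKO replicate 3 and -0.59 without male cKO replicate 1.

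Within males 0 of 33 members passed (0% of all genes). At an unadjusted p under 0.05 there was 1 member, Mcam, against 9.7% of genes. Endothelial members had a median log2 fold change of 0.58 with 16 of 22 positive, pericyte members 0.14 with 5 of 8, and smooth muscle members 1.63 with 3 of 3. These rest on 2 cKO libraries that differed from each other. Endothelial sums were 13616 in replicate 1 and 6130 in replicate 3, and the endothelial median was 0.06 without replicate 1 and 1.11 without replicate 3, the library with 18 Nkx6-1 reads. Controls moved it too, to 0.23 without male control replicate 2 and 0.94 without male control replicate 3. Pecam1, Cdh5 and Myh11 had both cKO libraries above all male controls, 3 of 33 members, where 12.7% of all genes did. No member had both below, where 14.1% of all genes did, so 3 of 33 were separated in either direction against 26.9%. By DESeq2 0 members and 0.632% of genes passed in males, and by edgeR 0 members and 0%.

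Within females 0 of 33 members passed in limma (0% of all genes), and 1, Myh11, had an unadjusted p under 0.05, against 3.9% of genes. The median log2 fold changes were 0.23 for endothelial members (13 of 22 positive), -0.53 for pericyte members (2 of 8) and -0.88 for smooth muscle members (0 of 3). The sign of the endothelial median rested on single libraries, since it was -0.20 without female control replicate 2, -0.14 without female cKO replicate 2, -0.0013 without female cKO replicate 3 and 0.63 without female cKO replicate 1. The pericyte median ran from -0.63 without female control replicate 2 to -0.092 without female cKO replicate 1. Kdr was the only member with all female cKO libraries above all female controls (1 of 33, against 4.39% of genes) and Myh11 the only one with all below (1 of 33, against 4.75%), so 2 of 33 were separated against 9.14%. Over both sexes together 0 members were separated in either direction, against 0.595% of genes, where 0.206% had all cKO libraries above and 0.389% all below. The difference of the effects, female minus male, passed for 0 members (0% of genes), and 1, Myh11, had an unadjusted p under 0.05 against 5.58% of genes. Female minus male among controls, 0 members passed (0.0381% of genes), and 2, Myh11 and Acta2, had an unadjusted p under 0.05 against 1.83% of genes. By edgeR 0 members passed in females, for the difference of the effects or between control libraries, with 0%, 0% and 0.0356% of genes, and by DESeq2 also 0, with 0.0113%, 0.0631% and 0.0338%.

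**Figure D5:**
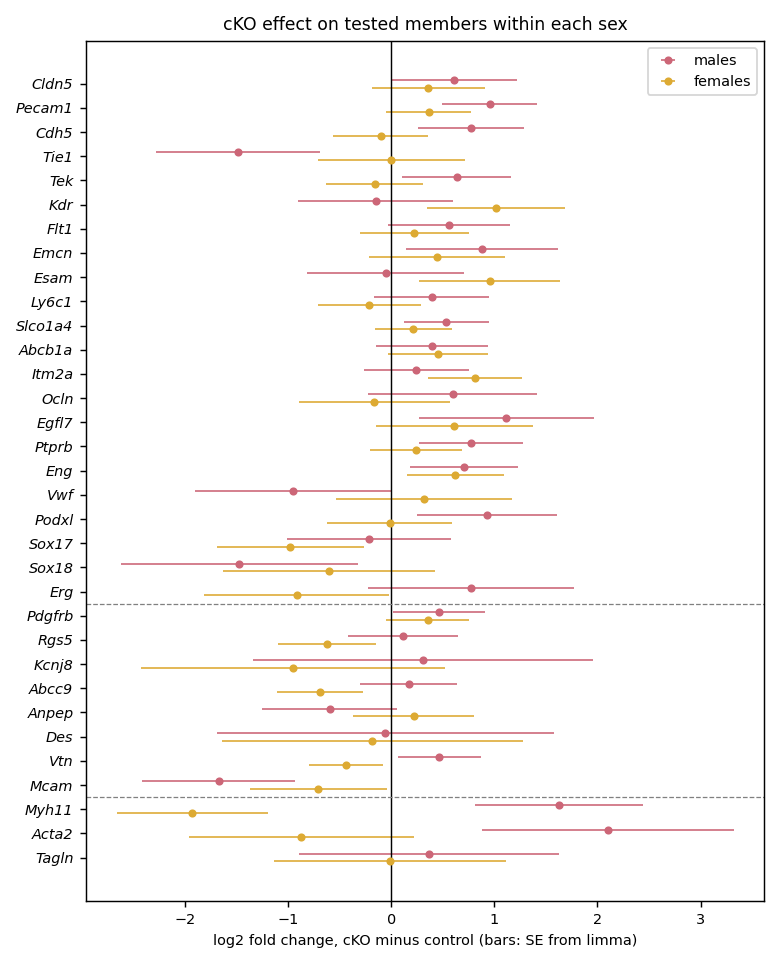
Log2 fold changes of the 33 tested members, cKO minus control, in males and in females, with bars of 1 SE from limma; dashed lines divide endothelial, pericyte and smooth muscle genes. No member passed, and Myh11 lies on opposite sides of 0 in the sexes.

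Other vascular genes were taken from 5 lists, and 0 of their tested members passed in limma in the averaged comparison. At an unadjusted p under 0.05 the lists held 1, 2, 6, 2 and 2 of their 26, 16, 30, 26 and 25 tested genes in the order given here, where 8.57% of all genes tested did so. Among barrier transport and junction genes 22 of 26 tested genes had a positive averaged log2 fold change (median 0.35). Taken by sex, the median was 0.54 in males, which have 2 cKO libraries, and 0.16 in females. The 3 with the smallest p were F11r, a junctional adhesion molecule, at 1.37 (SE 0.51, limma adjusted p = 0.483), the forkhead gene Foxq1 at 1.18 (SE 0.65, limma adjusted p = 0.626) and the efflux transporter gene Abcg2 at 0.61 (SE 0.36, limma adjusted p = 0.647). F11r had 15.2 to 42.4 normalized counts in controls and 37.0 to 104 in cKO libraries, which overlapped. Among arterial and venous endothelial genes 14 of 16 tested genes had a positive averaged log2 fold change (median 0.48). The sexes differed here, with a median of 0.83 in males and -0.081 in females. Lyve1, a receptor of lymphatic vessels and macrophages, had 1.05 (SE 0.40, limma adjusted p = 0.486), the Notch target Hey1 had 0.73 (SE 0.39, limma adjusted p = 0.611) and the homeobox gene Prox1, which lymphatic endothelium, oligodendrocytes and neurons express, had -0.73 (SE 0.30, limma adjusted p = 0.527).

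Among angiogenic signals and receptors 20 of 30 tested genes had a positive averaged log2 fold change (median 0.32). By sex the median was 0.71 in males and 0.046 in females. In the averaged comparison 6 of the 30, all positive, had an unadjusted p under 0.05. Of all 13108 genes, 466 had one with a positive log2 fold change. The Wnt ligand genes Wnt7a and Wnt7b, which act on brain endothelium to build the barrier, had 1.62 (SE 0.49, limma adjusted p = 0.439) and 1.72 (SE 0.68, limma adjusted p = 0.503). Wnt7a had 19.3 to 131 normalized counts in controls and 33.4 to 214 in cKO libraries. In males its mean was 25.2 in controls and 194 in cKO libraries, against 64.1 and 67.1 in females. The growth factor gene Vegfb had 0.95 (SE 0.34, limma adjusted p = 0.473). Other mural genes divided evenly, where 13 of 26 tested genes had a positive averaged log2 fold change (median -0.01, with 0.29 in males and -0.18 in females). Synpo2, an actin-binding protein of muscle, had 0.97 (SE 0.36, limma adjusted p = 0.483), the tropomyosin gene Tpm1 0.54 (SE 0.24, limma adjusted p = 0.546) and the zinc finger gene Zic1 0.51 (SE 0.35, limma adjusted p = 0.724). Among perivascular fibroblast and basement membrane genes 21 of 25 tested genes had a positive averaged log2 fold change (median 0.39). Their median was 0.63 in males and 0.19 in females. The matricellular protein gene Sparc, which endothelium and glia share, had 0.71 (SE 0.23, limma adjusted p = 0.439), the basement membrane proteoglycan gene Hspg2 0.84 (SE 0.36, limma adjusted p = 0.546) and the chemokine gene Cxcl12 0.56 (SE 0.27, limma adjusted p = 0.584). Astrocytes express several genes of these lists, Wnt7a and Sparc among them. The astrocyte marker sums given above did not overlap between cKO and control libraries of males (64799 to 79896 against 13292 to 35872). Slc1a2 alone had 41081 and 53991 in the male cKO libraries. Taken singly, Slc1a2 and Aqp4 did not overlap in males either. Aldh1l1 (32.1 to 157 in controls, 131 and 142 in cKO libraries) and Gfap (181 to 551, and 506 and 1265) did overlap. The part of astrocyte markers in the values of these lists was not tested.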

How the data were processed

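Expression was measured in 12 libraries of sorted spinal cord cells, 3 in each of 4 groups of sex and genotype. Per the labels' protocols, libraries were made from total RNA with the TRIO-RNA SEQ V2 kit and sequenced in paired-end mode. The submitters' processing notes name the build mm10 and, with no role or order, the tools STAR 2.5.0a, DESeq2 1.20.0, MultiQC 0.9 and FastQC 0.10.1. How reads were counted, with which annotation and strand, is not given in the sources used here. The deposited table gives a normalized signal per gene symbol (normalized counts). In each library 100% of values were whole multiples of its smallest value, within 0.01 reads, so the authors divided each library's counts by a single factor, which let whole reads be recovered.

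The test was limma 3.58.1 (trend, robust; R 4.3.3) on log2(value + 1), with 1 mean per group over 11 libraries and Benjamini-Hochberg adjustment over 13108 genes with at least 10 normalized counts in at least 3 libraries. Fold changes on this scale understate those of low genes. edgeR 4.0.16 and DESeq2 1.42.0 ran on recovered reads. Permutation tests used 100000 resamples (all orders with 6 libraries) in Python 3.11.15 with NumPy 2.4.6. The limma test and the permutation test were tried on simulated data with strong planted effects. Such runs do not show whether weaker effects would be found. Members and lists were chosen with earlier results of these data known. All members may be named, values in every library are given for the 4 endothelial, 3 pericyte and 2 smooth muscle members with the highest mean and those with an unadjusted p under 0.05 in the averaged comparison, and up to 3 genes are named per other list. Cldn5 and Mog are shown in full as genes the results turn on. Gene positions and exon lengths are those of GENCODE vM21 (GRCm38, the assembly of mm10). Lists matched by symbol, with 2 genes found under another symbol (Adgrf5 and Adgra2). Reads assigned to no gene were not analysed here.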

Additional observations from a re-analysis of the deposited data

Results flagged for a closer look

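Myh11 was flagged because its cKO libraries were all above the controls in males and all below them in females. Among all 13108 tested genes, 0.87% were separated in both sexes in opposite directions. For Myh11 the effects in the sexes were compared. The difference of the effects, female minus male, was -3.56 on the log2 scale (SE 1.10, limma adjusted p = 0.882), so it did not pass. Over the alternatives its adjusted p was 0.368 to 1.00.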

How the results depend on the processing

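In each of the 5 comparisons, 0 members passed under every one of 20 alternatives, which included all 12 libraries, leaving out each library in turn, other scalings, pseudocounts and filters, edgeR and DESeq2. The labels give no pairing, and the 15 same-numbered pairs had correlations of deviations of -0.11 to 0.06. With a replicate block 0 members passed and Vtn had -0.018. The averaged log2 fold change of Vtn changed sign also with all 12 libraries (-0.067), TMM scaling (-0.016) and edgeR (-0.020). Without both libraries labelled cKO replicate 3, which leaves 1 male cKO library assumed to vary like the others, Abcc9 had 0.10. In that setting the pericyte median in males was 0.73. The smooth muscle median of the difference of the effects, female minus male, was -3.905, and 5 of 8 pericyte members were positive. TMM scaling left 1 positive. With a pseudocount of 10 the smooth muscle median of the difference of the effects was -2.01. Leaving out 1 library at a time gave ranges of -0.19 to 0.22 for Vtn, -0.54 to 0.012 for Rgs5, -0.16 to 1.38 for Acta2 and -0.45 to 0.26 for Myh11. The same gave -0.75 to 0.73 for the pericyte median in males (lowest without male cKO replicate 1, highest without male cKO replicate 3). For the difference of the effects, female minus male, the pericyte median ran from -1.21 to 0.24. Smooth muscle medians ran from 0.56 to 1.92 in males, -1.87 to -0.010 in females and -3.74 to -1.44 for that difference. Positive pericyte members numbered 1 to 5. The correlation of Cldn5 ranged over 0.72 to 0.87 with Flt1, 0.66 to 0.82 with Aqp4 and 0.24 to 0.70 with Vtn. Without the 2 libraries farthest from the Cldn5 median it was 0.76 with Flt1 and 0.64 with Aqp4, and within females 0.77 and 0.83. The causes were not tested. Counts of positive members and the 32 correlations were chosen after seeing the data. Depth limits the low mural genes, and a count of 0 allows 3 reads.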
